A study of Mus musculus with 8 samples.

Results

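The genes described here are 41 interferon-stimulated genes, the set that cells switch on in answer to type I interferon, measured in C2C12 cells that carried extra HDAC4 or a control vector. Members were chosen as a list of gene symbols, and a member was found on the array where the platform annotation gave a probe that gene and no other. That held for 38 of the 41 genes, through 49 probes, out of 14510 genes named by such a probe on the array. Ifi44, Samd9l and Xaf1 had no such probe. C2C12, an established line of mouse myoblasts, forms myotubes once serum is lowered. Cells of the HDAC4 group had been stably selected after infection with a retrovirus encoding HDAC4, a class IIa histone deacetylase, together with Neo. Cells of the Neo group had been selected in the same way with a retrovirus encoding Neo alone, so both groups carried a retrovirus and a selection marker. Both had 4 days of differentiation in 2% horse serum after reaching near confluence, and each group has 4 samples. Whether these were separate cultures, or the stable cells a single clone, is not stated, so the p-values reflect a spread between samples that may be technical.

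Type I interferons bind the receptor IFNAR, which activates the kinases JAK1 and TYK2. Signalling then assembles the complex ISGF3, which holds STAT2 and IRF9 and binds the interferon-stimulated response element in the promoters of target genes. The products sense foreign RNA, block steps of viral growth, attach the ubiquitin-like protein ISG15 to other proteins, and raise the display of peptides on MHC class I. Several of them, such as RNA sensors and STAT2 and IRF9 themselves, feed back on the pathway.

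Each array held Cy5-labelled RNA of the cells and a Cy3-labelled mouse reference RNA, and each value is a log2 ratio of the channels, centred here on the array's median. The direction, cells over reference, is likely rather than stated: markers of myotubes such as Ckm, Tnnc2 and Mylpf lay far above 0, with array medians over 16 marker probes of 6.51 to 7.38 in HDAC4 and 7.21 to 7.79 in Neo. By the labels the reference RNA came from murine liver, and the liver markers do not bear out that source or the direction: 3 of their 9 probes had any value, between -0.01 and 1.04 and none far below 0, and Cyp2e1 and Fgb had none. Every signed value below depends on the direction. No probe is named for Hdac4, so the labels were not checked against the gene the virus carried. HDAC4 arrays had values for 17014 to 18521 of 31769 probes and Neo arrays for 19248 to 22193. The arrays numbered 1 stood apart in both groups: they correlated at 0.94 with each other and at 0.89 to 0.90 with the other arrays, while the other 6 arrays correlated with each other at 0.93 to 0.97. Counts over the member and pathway probes are therefore given with and without them. Marker results are over all arrays unless stated. Leukocyte markers lay far below 0 in both groups, with array medians of -4.10 to -3.04 in HDAC4 and -3.86 to -3.16 in Neo, and 8 of 10 such genes had a value. Of 6 leukocyte probes tested over all arrays 5 had a lower mean in HDAC4, as the members did, with a median log2 change of -0.18 and no call. The widest were Ptprc at -0.97 (adjusted p = 0.678) and Lyz2 at -0.61 (adjusted p = 0.639), both with overlapping groups. Without the arrays numbered 1 the leukocyte probes still tested were split, with no call. Lyz2 at -0.68 and Cd14 at -0.17 were lower in HDAC4, and Adgre1 at 0.71 and Cd68 at 0.07 were higher. Ptprc and Tyrobp had too few values there to be tested. For replicates 2 to 4 in the interaction fit described below, both were lower, at -1.36 (adjusted p = 0.202) and -0.43 (adjusted p = 0.661). Of 15 myotube probes 11 had a lower mean in HDAC4, with a median of -0.17 and no call, and 1 Ttn probe had groups that did not overlap, at -0.70 (adjusted p = 0.380). Without the arrays numbered 1 the myotube probes went both ways, from -0.67 to 0.26, both of Ttn, with no call. Of the 4 fibroblast probes tested 3 were higher in HDAC4, with a median log2 change of 0.63 and no call. Thy1 was the widest of them, at 1.295 (adjusted p = 0.710). Without the arrays numbered 1 Thy1 had too few values. Pdgfra at 0.83 and Dcn at 0.17 were then higher and Col3a1 at -0.39 lower, with no call. Of the 2 myoblast probes tested, Myf5 was at -0.40 and Mki67 at 0.03, with no call. The part of these cells in the results was not tested. In bulk RNA, fewer cells of a type and less RNA per cell cannot be told apart.

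Over all 4 HDAC4 and 4 Neo arrays, no member probe passed the test, although nearly all had a lower mean in HDAC4. Of 35 member probes with at least 3 values in each group, for 29 genes, 33 had a negative log2 change (HDAC4 minus Neo) and 2 a positive one. Their median log2 change was -0.49, while over all 16748 tested probes it was -0.004 and 50.6% were lower. In limma, 0 of the 35 had an adjusted p under 0.05, where 0.119% of all tested probes passed as lower and 0.00597% as higher. At an unadjusted p under 0.05 in limma, 9 of the 35 were lower and 0 higher, against 4.40% of all probes lower and 2.63% higher. An exact two-sided permutation test gave p = 0.0286, the smallest that 4 against 4 arrays allow, for 1 of the 35, Trim21. It was also the single member probe whose groups did not overlap, where 3.18% of all probes had such groups with HDAC4 lower and 2.07% with HDAC4 higher.

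Most members were below their own mean on Neo replicate 1 and on each HDAC4 array, and above it on the other Neo arrays. On Neo replicates 2, 3 and 4 the median deviation of 32 member probes from their own mean over 8 arrays was 0.56, 0.69 and 0.24, and on Neo replicate 1 it was -0.61. HDAC4 replicates 1 to 4 had median deviations of -0.40, -0.10, -0.27 and -0.22. Over all 14746 probes with 8 values, no array departed from 0 by more than 0.03. Every one of the 32 probes stood above its own mean on Neo replicate 3, 31 did on Neo replicate 2 and 25 on Neo replicate 4. Against this, 6 did on Neo replicate 1, and 8, 12, 5 and 8 on HDAC4 replicates 1 to 4.

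**Figure D1:**
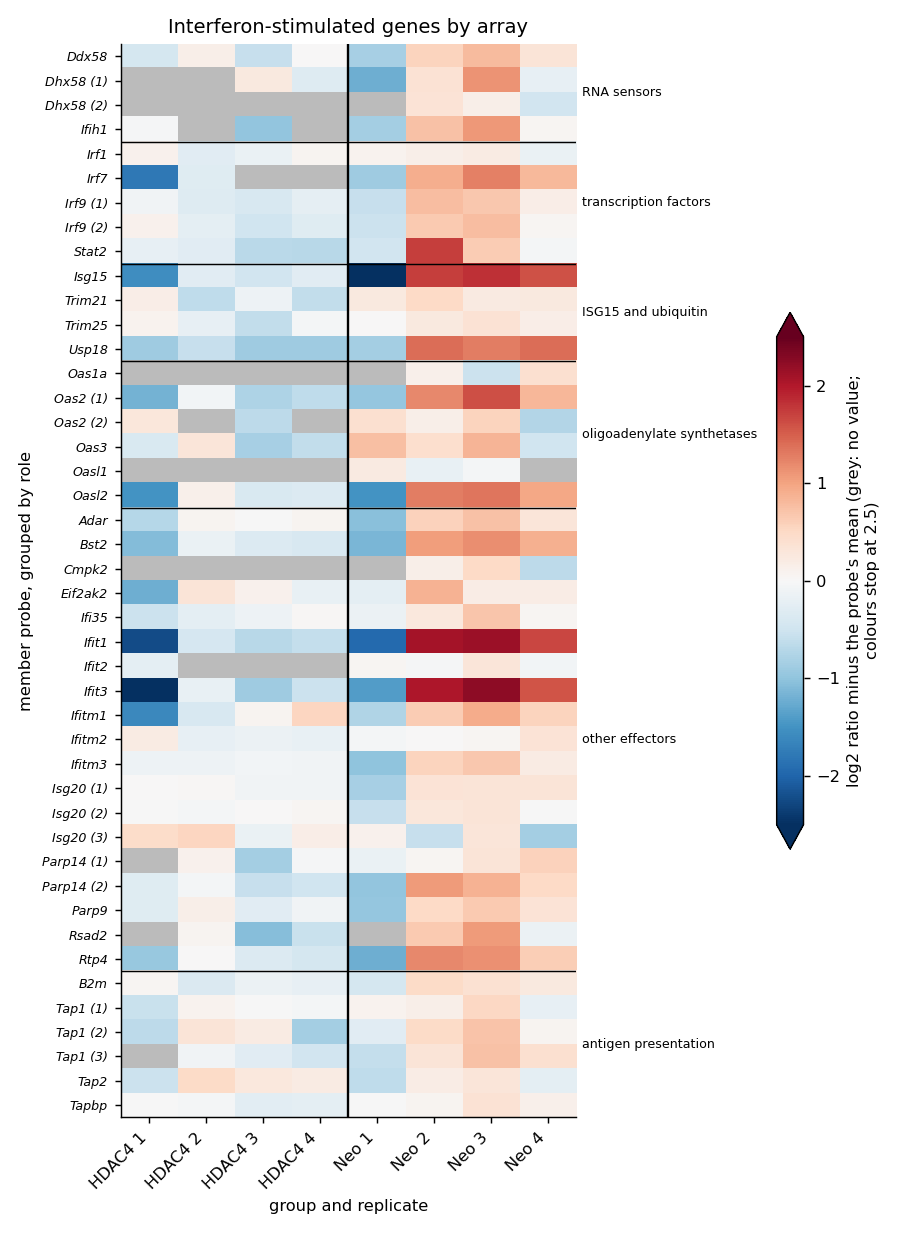
Each row is a member probe with values on at least 3 arrays, grouped by role, each column an array, and colour the log2 ratio minus the probe's mean, with grey for no value. Neo replicates 2 to 4 are red for most rows, while Neo replicate 1 and the HDAC4 arrays are pale or blue, most deeply for Isg15, Ifit1 and Ifit3 on the arrays numbered 1.

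Within same-numbered arrays, paired by sample number alone, the difference held in 3 of the 4 pairs. HDAC4 was lower than Neo for 32 of 35 member probes in the pair numbered 2, for 35 of 35 in the pair numbered 3 and for 30 of 35 in the pair numbered 4. The median differences there were -0.55, -0.98 and -0.41 on the log2 scale. In the pair numbered 1, 12 of 32 member probes were lower in HDAC4 and the median difference was 0.09. Over all tested probes, between 48.2% and 52.7% were lower in HDAC4 in each of the 4 pairs.

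**Figure D2:**
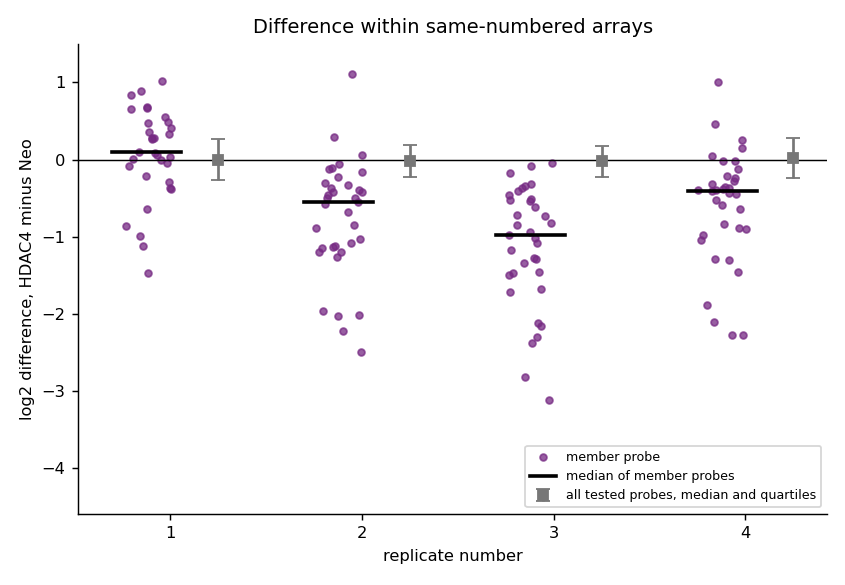
Points are log2 differences, HDAC4 minus Neo, of the tested member probes within each replicate number, with their median as a black line and the median and quartiles of all tested probes in grey. The member medians are -0.55, -0.98 and -0.41 in the pairs numbered 2 to 4 and 0.09 in the pair numbered 1.

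Without the arrays numbered 1, 10 interferon-stimulated genes were lower in HDAC4 and none was higher. They were Ifit1, Ifit3, Usp18, Isg15, Oas2, Oasl2, Bst2, Rtp4, Parp14 and B2m, with folds between 1.52 and 5.79. This is 10 of 35 member probes at an adjusted p under 0.05 in limma, 3 against 3 arrays, where 1.51% of 15397 tested probes passed as lower and 0.747% as higher. A count of 0 higher also held at an unadjusted p under 0.05, where 26 of the 35 were lower, against 9.73% of all probes lower and 8.48% higher. The groups did not overlap for 25 of the 35, all lower in HDAC4, where 13.6% of all probes had such groups with HDAC4 lower and 12.6% with HDAC4 higher. The median log2 change of the 35 was -0.63. Leaving out Neo replicate 1 alone gave 6 calls, for Bst2, Ifit1, Isg15, Oas2, Parp14 and Usp18, where 0.452% of all probes passed in either direction. Leaving out HDAC4 replicate 1 alone gave 0 calls, where 0.563% of all probes passed in either direction at the adjusted threshold. In that fit 5 member probes had an unadjusted limma p under 0.05, a count given without a share of all probes. Bst2, Ifit1, Ifit3, Isg15 and Usp18 passed in each of 6 further fits of the 3 against 3 comparison that left out 1 more array. Oas2 and Oasl2 passed in 2 of the 6, Rtp4 in 1, and B2m and Parp14 in none, with adjusted p up to 0.178. With the arrays numbered 1 kept and fitted as a batch, Ifit3 alone passed, at a log2 change of -2.23 ± 0.24 (SE; adjusted p = 0.0103), where 0.496% of all probes passed as lower and 0.149% as higher. At an unadjusted p under 0.05 that fit had 15 member probes lower and 0 higher, against 7.52% and 6.04% of all probes. Blocking on the replicate number gave Ifit3 an adjusted p of 0.0606 in limma, and 0 of the 35 passed, where 0.0418% of all probes passed as lower and 0.0119% as higher. Before adjustment the block left 17 member probes lower and 0 higher at p under 0.05, against 6.65% and 4.90% of all probes.

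**Figure D3:**
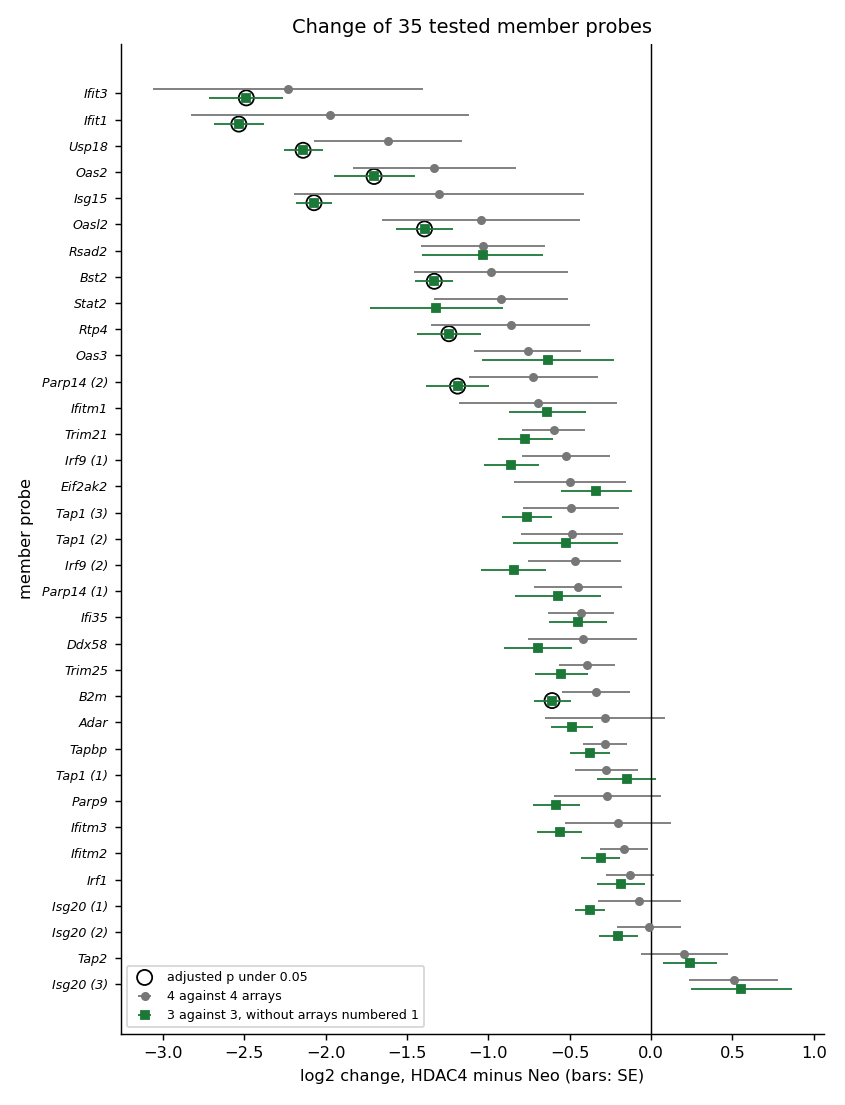
Log2 changes, HDAC4 minus Neo, with SE bars for the 35 tested member probes, from 4 against 4 arrays (grey) and from 3 against 3 arrays without those numbered 1 (green), with rings at an adjusted p under 0.05. Of the green points 33 lie below 0, and the 10 ringed ones run from -2.53 for Ifit1 to -0.61 for B2m.

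Among the effectors, the IFIT proteins, which bind foreign RNA in the cytosol, gave the widest differences. Ifit1 had log2 ratios of -2.43, -0.61, -0.89 and -0.79 in HDAC4 replicates 1 to 4, against -2.14, 1.89, 1.93 and 1.48 in Neo replicates 1 to 4. The 3 high Neo values stood apart from everything else, and both arrays numbered 1 lay lowest in their group. Without those arrays Ifit1 was 5.79-fold lower in HDAC4 (log2 change -2.53 ± 0.15, SE; adjusted p = 0.00136), and over all arrays the change was -1.97 ± 0.86 (SE; adjusted p = 0.707). Ifit3 read -2.35, 0.31, -0.38 and -0.03 in HDAC4 replicates 1 to 4, against -0.88, 2.54, 2.75 and 2.08 in Neo replicates 1 to 4. Here HDAC4 was also lower in the pair numbered 1, with a difference of -1.47, with both of its arrays below the others of their group. The fold without that pair was 5.61 lower in HDAC4 (log2 change -2.49 ± 0.23, SE; adjusted p = 0.00511). Ifit2 was not tested, since it had a value on all 4 Neo arrays, between -1.14 and -0.77, and on HDAC4 replicate 1 alone, at -1.32.

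Isg15, the ubiquitin-like protein that is attached to others during the response, was lower in HDAC4 on replicates 2 to 4 and higher within the pair numbered 1. It stood at -2.20, -0.94, -1.13 and -0.93 in HDAC4 replicates 1 to 4, against -3.21, 1.09, 1.17 and 0.95 in Neo replicates 1 to 4. Its mean over 4 arrays was -1.30 ± 0.61 in HDAC4 and 0 ± 2.14 in Neo (SD, n = 4 each), and the wide Neo spread is that of Neo replicate 1 against 3 close arrays. Without the arrays numbered 1 the fold was 4.2 lower in HDAC4 (log2 change -2.07 ± 0.11, SE; adjusted p = 0.00103). Usp18, which takes ISG15 off its targets and dampens signalling at the interferon receptor, had -3.85, -3.53, -3.84 and -3.84 in HDAC4 replicates 1 to 4, against -3.80, -1.56, -1.68 and -1.56 in Neo replicates 1 to 4. Neo replicate 1 lay among the HDAC4 arrays, and the other 3 Neo arrays far above every HDAC4 array. Usp18 was 4.4-fold lower in HDAC4 without the arrays numbered 1 (log2 change -2.14 ± 0.12, SE; adjusted p = 0.00103), and had the smallest p of the members over all arrays, with an adjusted p of 0.375.

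The list also holds ubiquitin ligases. Trim21, a ligase that binds antibody-coated particles in the cytosol, had -0.29, -1.08, -0.57 and -1.06 in HDAC4 replicates 1 to 4, against -0.21, 0.06, -0.23 and -0.21 in Neo replicates 1 to 4. All 4 HDAC4 arrays lay below all 4 Neo arrays, by a narrow margin at replicate 1, and the log2 change was -0.60 ± 0.19 (SE; adjusted p = 0.512). Trim25, which activates the RNA sensor RIG-I, had -0.85, -1.15, -1.55 and -0.98 in HDAC4 replicates 1 to 4, against -0.93, -0.69, -0.57 and -0.77 in Neo replicates 1 to 4. Its groups overlapped only through the arrays numbered 1, and its change of -0.39 ± 0.17 (SE) had an adjusted p of 0.71, or 0.142 without them.

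The oligoadenylate synthetases make short oligoadenylates that activate RNase L. Oas2 had -3.23, -2.11, -2.82 and -2.68 in HDAC4 replicates 1 to 4, against -3.01, -0.85, -0.43 and -1.22 in Neo replicates 1 to 4. It was 3.25-fold lower in HDAC4 without the arrays numbered 1 (log2 change -1.70 ± 0.25, SE; adjusted p = 0.0227), and a second Oas2 probe with 2 HDAC4 values was not tested. Oasl2, a related mouse protein, showed -2.55, -0.93, -1.45 and -1.40 in HDAC4 replicates 1 to 4, against -2.55, 0.22, 0.28 and -0.09 in Neo replicates 1 to 4. Its arrays numbered 1 were nearly equal, and without them it was 2.62-fold lower in HDAC4 (log2 change -1.39 ± 0.17, SE; adjusted p = 0.014). Oas3 gave -3.18, -2.49, -3.63 and -3.41 in HDAC4 replicates 1 to 4, against -2.05, -2.38, -1.96 and -3.29 in Neo replicates 1 to 4. Its groups overlapped with or without the arrays numbered 1, and its change was -0.76 ± 0.33 (SE; adjusted p = 0.709).

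**Figure D4:**
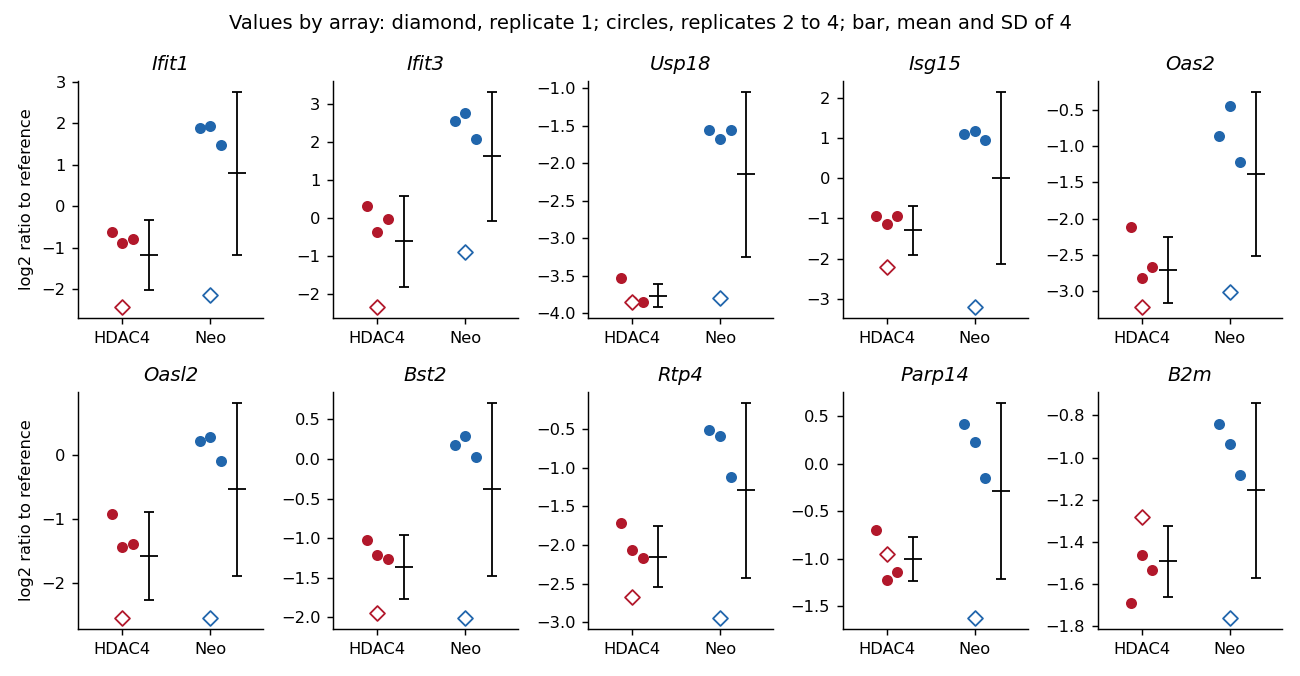
Log2 ratios to the reference by array for the 10 members past the threshold without the arrays numbered 1, with replicate 1 as open diamonds, replicates 2 to 4 as circles, and the mean and SD of 4 arrays as bars; each panel has its own axis. In all 10 panels the Neo diamond lies below the 3 Neo circles, and the 3 HDAC4 circles lie below the 3 Neo circles.

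Of the other effectors, Bst2, the tetherin that holds budding virus at the cell surface, had -1.95, -1.03, -1.21 and -1.27 in HDAC4 replicates 1 to 4, against -2.01, 0.18, 0.29 and 0.03 in Neo replicates 1 to 4. Within the pair numbered 1 it differed by 0.06, and without that pair it was 2.52-fold lower in HDAC4 (log2 change -1.33 ± 0.12, SE; adjusted p = 0.00511). Rtp4, a chaperone of membrane receptors, had -2.67, -1.72, -2.06 and -2.16 in HDAC4 replicates 1 to 4, against -2.95, -0.52, -0.59 and -1.11 in Neo replicates 1 to 4. Without the arrays numbered 1 it was 2.37-fold lower in HDAC4 (log2 change -1.24 ± 0.20, SE; adjusted p = 0.0278). Parp14, an ADP-ribosyltransferase, was measured with 2 probes, of which the second had -0.95, -0.70, -1.23 and -1.14 in HDAC4 replicates 1 to 4, against -1.63, 0.42, 0.23 and -0.15 in Neo replicates 1 to 4. That probe was 2.28-fold lower in HDAC4 without the arrays numbered 1 (log2 change -1.19 ± 0.20, SE; adjusted p = 0.032). The first, with no value on HDAC4 replicate 1, had a change of -0.57 ± 0.26 (SE; adjusted p = 0.31) and overlapping groups.

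Rsad2, the antiviral enzyme viperin, had no value on either array numbered 1. The remaining values were -2.26, -3.40 and -2.88 in HDAC4 replicates 2 to 4, against -1.69, -1.27 and -2.49 in Neo replicates 2 to 4, and the groups overlapped through HDAC4 replicate 2 and Neo replicate 4. The change was -1.03 ± 0.38 (SE; adjusted p = 0.637). Ifi35 had 0.41, 0.69, 0.82 and 0.97 in HDAC4 replicates 1 to 4, against 0.79, 1.20, 1.64 and 0.99 in Neo replicates 1 to 4. In Ifi35 the arrays numbered 1 were low as well, and its change of -0.43 ± 0.20 (SE) had an adjusted p of 0.748. The 3 IFITM genes, whose products hinder viral entry, had changes without the arrays numbered 1 of -0.64 for Ifitm1, -0.31 for Ifitm2 and -0.56 for Ifitm3, and none passed. All 8 values of Ifitm1 were at ratios that a floored reference signal would give, in which case they would follow the cells' channel alone. Eif2ak2, the kinase PKR, had a change of -0.34, the RNA editing enzyme Adar one of -0.49 and the ADP-ribosyltransferase Parp9 one of -0.58, with adjusted p of 0.454, 0.114 and 0.0963.

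Isg20, an RNA exonuclease, was the member whose probes disagreed in sign. Its first probe had -1.56, -1.54, -1.66 and -1.67 in HDAC4 replicates 1 to 4, against -2.40, -1.23, -1.25 and -1.26 in Neo replicates 1 to 4. The second was close to it, with -1.51, -1.54, -1.48 and -1.45 in HDAC4 replicates 1 to 4, against -2.06, -1.21, -1.17 and -1.49 in Neo replicates 1 to 4. The third gave 0.08, 0.15, -0.55 and -0.22 in HDAC4 replicates 1 to 4, against -0.28, -0.96, -0.09 and -1.23 in Neo replicates 1 to 4, higher in HDAC4 on 3 of the 4 pairs. Over all arrays the changes were -0.07, -0.01 and 0.51, and none passed.

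The 6 tested probes of antigen presentation genes had a median log2 change of -0.45 without the arrays numbered 1, beside -0.57 for the 17 effector probes, a difference that was not tested. B2m, the light chain of MHC class I, had -1.28, -1.69, -1.46 and -1.53 in HDAC4 replicates 1 to 4, against -1.76, -0.84, -0.93 and -1.08 in Neo replicates 1 to 4. The HDAC4 array was the higher one in the pair numbered 1 and the lower one in the other 3, and without that pair B2m was 1.52-fold lower in HDAC4 (log2 change -0.61 ± 0.11, SE; adjusted p = 0.0457). Tapbp, which loads peptides onto MHC class I, had -1.47, -1.51, -1.71 and -1.70 in HDAC4 replicates 1 to 4, against -1.47, -1.38, -1.09 and -1.33 in Neo replicates 1 to 4. Its change over all arrays was -0.28 ± 0.14 (SE; adjusted p = 0.757), and its groups touched only through the arrays numbered 1. For the peptide transporter, the 3 probes of Tap1 had changes of -0.15, -0.52 and -0.76 without the arrays numbered 1, and Tap2 one of 0.24, with none past the threshold.

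Factors that drive the response were lower in value and did not pass. Stat2 had -0.14, -0.22, -0.60 and -0.62 in HDAC4 replicates 1 to 4, against -0.41, 1.80, 0.69 and 0.02 in Neo replicates 1 to 4. Neo replicates 2 and 3 stood high and Neo replicate 4 near the HDAC4 arrays, and the change of -0.92 ± 0.41 (SE) had an adjusted p of 0.71, or 0.16 without the arrays numbered 1. The probes of Irf9, its partner in ISGF3, had changes without those arrays of -0.86 and -0.84, with adjusted p of 0.0535 and 0.0852. Irf1 had on the same arrays a change of -0.18 (adjusted p = 0.551). Irf7, which amplifies interferon production, was not tested, with -2.94 and -1.46 on HDAC4 replicates 1 and 2, against -2.06, -0.25, 0.10 and -0.36 in Neo replicates 1 to 4. Of the RNA sensors, Ddx58, which encodes RIG-I, had a change of -0.69 ± 0.21 (SE; adjusted p = 0.15) without the arrays numbered 1. Ifih1, which encodes MDA5, had values on 2 HDAC4 arrays and was not tested.

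For 4 members a probe had values on at least 3 Neo arrays and on no HDAC4 array. Oas1a, at 0.37, -0.29 and 0.64 on Neo replicates 2 to 4, had a value on none of the HDAC4 arrays. The mitochondrial nucleotide kinase gene Cmpk2 had -0.17, 0.19 and -0.96 on the same Neo arrays and none in HDAC4. A probe of Dhx58, which encodes the sensor LGP2, had 0.25, 0.06 and -0.56 there and none in HDAC4, while its other probe had values on HDAC4 replicates 3 and 4. That other Dhx58 probe also had a value on Neo replicate 1, at -1.38, where the probes just given for Oas1a, Cmpk2 and Dhx58 had none. Oasl1 had -4.12, -4.54 and -4.39 on Neo replicates 1 to 3 and none in HDAC4. These are 4 of the 48 member probes with any value, where 2.60% of all such probes had at least 3 Neo values and no HDAC4 value. A wider count does not separate the members: 15 of 48 had more Neo than HDAC4 values, or 31.2%, against 31.9% of all probes. Mx1 and Mx2, antiviral GTPases, each had a value on 1 Neo array and on no HDAC4 array. Why values are missing is not stated in the sources used here.

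A test of the difference between pairs asked whether the change in the pair numbered 1 departed from that in replicates 2 to 4. It rests on 1 array per group in that pair, which is assumed to vary like the others. In limma the interaction passed for 3 of 32 member probes, all with a positive sign, where 0.288% of all probes passed with that sign and 0.0689% with the other. Before adjustment 18 of the 32 had p under 0.05 with a positive sign and 0 with a negative one, against 9.62% and 6.94% of all probes. Isg15 had the widest of them, 3.08 ± 0.23 on the log2 scale (SE; adjusted p = 0.0153). Ifit1 had 2.24 ± 0.31 (SE; adjusted p = 0.0488) and Usp18 2.09 ± 0.24 (SE; adjusted p = 0.0351). In the pair numbered 1 itself, HDAC4 minus Neo was 1.01 for Isg15, -0.29 for Ifit1 and -0.05 for Usp18. The interaction of Ifit3 was 1.02 ± 0.46 (SE; adjusted p = 0.328). In the fit with replicate 1 as a batch, 12 of 34 member probes were lower on the arrays numbered 1 and 0 higher, or 19 and 0 before adjustment at p under 0.05. Among all probes 11.2% passed as lower and 10.3% as higher, or 17.7% and 19.2% before adjustment.

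Member probes moved together from array to array within a group. Over 496 pairs of the 32 member probes with 8 values, the median Pearson correlation of deviations from the group mean was 0.56, with quartiles of 0.15 and 0.85. The same over all pairs of 14746 probes gave a median of 0.01 and quartiles of -0.41 and 0.42. Without the arrays numbered 1 the median was 0.51 for the members and 0.01 for all probes. Probes on an array share its labelling and scan, so no p is given.

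**Figure D5:**
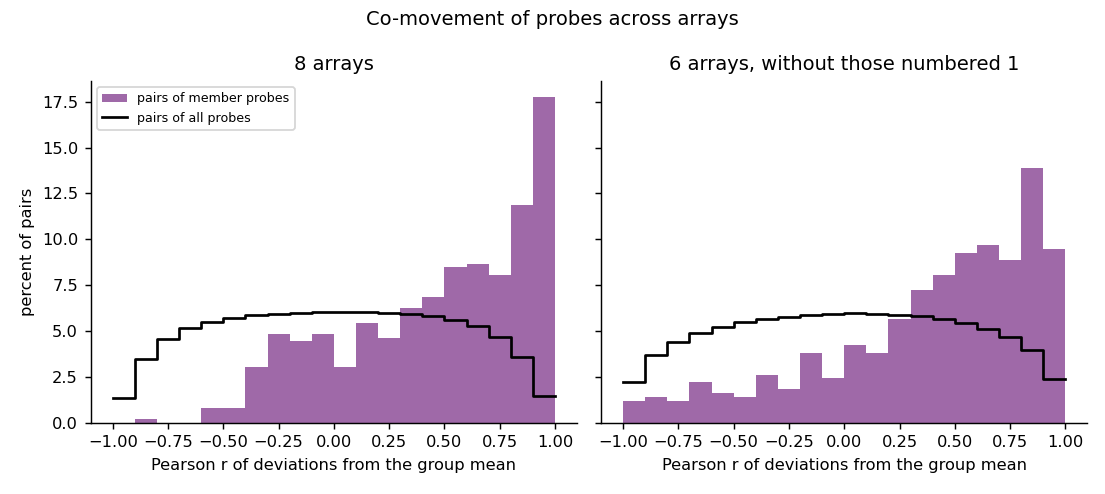
Histograms of Pearson correlations between probes over deviations from the group mean, for pairs of member probes (bars) and pairs of all probes with 8 values (line), over 8 arrays and over the 6 arrays not numbered 1. Member pairs are most frequent towards 1, with medians of 0.56 and 0.51, while all pairs centre near 0.

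Promoters of the members that fell are shown because the response element bound by ISGF3 and IRF factors is defined by its sequence. The motif searched was GAAA, any 2 bases and GAAA again, on either strand, so that on the other it begins and ends with TTTC, in RefSeq windows of GRCm38.p6 from 250 bases before to 50 after each gene's start. The windows cover 32 of the 41 members, and 15 of these held at least 1 match, against 3.99% of 27025 genes. Of the 10 genes past the threshold without the arrays numbered 1, 6 had a window and 5 of them a match, namely Ifit1, Ifit3, Isg15, Bst2 and B2m. The 60 bases around the match nearest to the start are given below, 5′ to 3′ on the gene's strand with matches in capitals.
Ifit1, chr19:34640779-34640838, plus strand: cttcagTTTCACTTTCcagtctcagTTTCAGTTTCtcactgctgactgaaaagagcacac
Ifit3, chr19:34583382-34583441, plus strand: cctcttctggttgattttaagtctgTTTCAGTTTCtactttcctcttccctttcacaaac
Isg15, chr4:156200850-156200909, minus strand: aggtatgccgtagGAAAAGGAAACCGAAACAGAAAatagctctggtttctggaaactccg
Bst2, chr8:71537562-71537621, minus strand: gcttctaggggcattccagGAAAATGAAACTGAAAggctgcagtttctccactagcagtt
B2m, chr2:122147523-122147582, plus strand: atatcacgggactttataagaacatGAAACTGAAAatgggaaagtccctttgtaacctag
The capitals of Isg15 hold 3 overlapping matches and those of Bst2 hold 2, while Ifit1 has 2 separate ones. Each lies before the start, the nearest at -66 in Isg15 and the farthest of those shown at -139 in B2m, counted to the first base of the match on the gene's strand. Oasl2 had no match in its window. A match is a string of letters and not a measured site.

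Other genes of the pathway were tested probe by probe in the same fits, and are given here by role. All calls, over all arrays, with replicate 1 as a batch or without the arrays numbered 1, were of other interferon-responsive genes, and all were lower. Of 49 tested probes of 39 pathway genes outside the list, limma called 1 lower and 0 higher over all arrays. Among all probes 0.119% passed as lower and 0.00597% as higher. Before adjustment 7 had p under 0.05 as lower and 0 as higher, against 4.40% and 2.63% of all probes. The called probe belongs to Trim30a, a TRIM family gene, with -1.98, -1.29, -1.97 and -1.51 in HDAC4 replicates 1 to 4, against 0.24, 0.10 and -0.29 in Neo replicates 2 to 4 and no value on Neo replicate 1. Its log2 change was -1.71 ± 0.22 (SE; adjusted p = 0.0352, or 0.0804 with the block). With replicate 1 as a batch 2 passed, both of them Trim30a probes without a value on Neo replicate 1. A further Trim30a probe, with 2 HDAC4 values and not tested, had a value there, at -2.46, below the -1.93 of HDAC4 replicate 1. The second called Trim30a probe had -3.41, -2.02, -2.56 and -1.87 in HDAC4 replicates 1 to 4, against 0.10, -0.03 and -0.30 in Neo replicates 2 to 4, and an adjusted p of 0.0583 over all arrays. Psmb10, an immunoproteasome subunit gene, had -0.32, -0.39, -0.31 and -0.35 in HDAC4 replicates 1 to 4, against -0.07, -0.08, 0.06 and 0.02 in Neo replicates 1 to 4. Its groups did not overlap, with a narrow spread in each, and its change was -0.33 ± 0.11 (SE; adjusted p = 0.559).

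Without the arrays numbered 1, 8 of 42 pathway probes passed as lower, for Trim30a, Ifi47, Herc6, Lgals3bp, Parp12, Psmb8 and Zbp1, and 0 as higher, against 1.51% and 0.747% of all probes. Before adjustment 14 had p under 0.05 as lower and 3, of Irf8, Pias1 and Ptpn11, as higher, against 9.73% and 8.48% of all probes. The 14 include the kinase genes Jak1, at a change of -0.27, and Jak2, at -0.38. The GTPase gene Ifi47 had -1.40, -1.49, -1.31 and -1.42 in HDAC4 replicates 1 to 4, against -1.15, 0.32, 0.62 and 0.52 in Neo replicates 1 to 4. Its groups did not overlap, although Neo replicate 1 lay near the HDAC4 arrays. Over all arrays the change was -1.49 ± 0.35 (SE; adjusted p = 0.241), and the change without the arrays numbered 1 was -1.90 ± 0.12 (SE; adjusted p = 0.00136). Lgals3bp, a secreted glycoprotein, changed by -1.39 (adjusted p = 0.0158), the nucleic acid sensor Zbp1 by -1.35 (0.0386) and the mouse ISG15 ligase gene Herc6 by -0.96 (0.0259). Parp12 changed by -0.69 (0.0412) and the immunoproteasome subunit gene Psmb8 by -0.59 (0.0356). The 19 tested probes of such responsive genes all had negative changes, with a median of -0.69. The receptor probes had changes of -0.13 to -0.09, the kinases and factors -0.38 to 0.45, the sensing genes -0.41 to 0.16 and the inhibitors -0.29 to 0.67, and 0 of these 23 probes passed, a count that the shares over all probes would also give, and no difference between roles was tested. The interferon genes Ifnb1 and Ifna4 had too few values to be tested. Ifna1 had too few without the arrays numbered 1, and over all arrays its change was -0.22, with no call.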

How the data were processed

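The values are log2 ratios of 2-colour arrays, 1 array per sample, which the authors deposited as a table of 31769 probes by 8 samples; per the labels' protocols, cell RNA was labelled with Cy5 and a common murine liver reference with Cy3, with no dye swap in the labels. No source used here states the scanner, background correction or normalization. That the ratio is cells over reference was read from the values. The scale was taken from the values, and centring was near 0, with column medians of 0.0058 to 0.0286. Here each array was centred on its own median. Of the probes, 18976 had 1 gene in the platform annotation, 404 had several and were not named, and 12389 were not listed. Symbols were updated through RefSeq's GRCm38.p6 table, and 41 of the probes with 1 gene had an identifier that it did not hold.

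limma 3.58.1 in R 4.3.3 (lmFit, eBayes) was fitted per probe to the 16748 probes with at least 3 values in each group, with Benjamini-Hochberg adjustment over all of them and a threshold of 0.05. Every adjusted p in the text is from limma. Exact two-sided permutation tests used scipy 1.17.1. Missing values were not filled in. Some values correspond to a ratio that is a whole multiple of 0.1 and at least 1, within 0.001 on the scale of 10 times the ratio, as a floored reference signal would give: 3.73% of member values and 10.0% of all values. The script was tested on simulated data. Precision is limited by the 4 arrays per group.

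Alternatives left out the arrays numbered 1, each array in turn or values at the floor, or changed the batch term, block, filter, centring, normalization or feature. The interaction fit and the fits that leave out 1 more array were added after values were seen. Same-numbered arrays deviated from their group means together, with correlations of 0.53, 0.31, 0.21 and 0.11 for numbers 1 to 4, all over 0.1. Unlike-numbered arrays among replicates 2 to 4 also correlated, at 0.07 to 0.27. Neo replicate 2 was the best match of HDAC4 replicates 3 and 4, at 0.22 and 0.27. The correlations set the arrays numbered 1 apart, and do not show that the numbers pair replicates 2 to 4. The pair differences and the block follow the sample numbers alone. The members and lists were chosen with earlier results of these data known. Values per array are given for members past the threshold over all arrays, with replicate 1 as a batch or without the arrays numbered 1. They are also given for the 12 with the smallest p over all arrays and those whose probes differ in sign. Members with at least 3 values in 1 group and none in the other are included. So are pathway genes past the threshold or among the 4 smallest p. Other genes are named by their change. Some results are not reported here.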

Additional observations from a re-analysis of the deposited data

Results flagged for a closer look

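Of 41 groups of 4 values examined among the member probes given per array, 10 held a sample whose gap to its nearest neighbour was above 0.829 of the group's range. Chance flags about 1 in 20 such groups where they are independent. The groups here share the same arrays, and members were chosen in part for passing the threshold without the arrays numbered 1. The count is therefore not compared with chance. Of the 10 flagged groups, Neo replicate 1 was the lowest sample in 6, with gap ratios of 0.889 for Ifit1, 0.949 for Isg15, 0.949 for Usp18, 0.87 for Oasl2, 0.887 for Bst2 and 0.978 for the first probe of Isg20. HDAC4 replicate 1 was the lowest in 2, with 0.845 for Ifit1 and 0.847 for Isg15. HDAC4 replicate 2 was the highest for Usp18, at 0.978, and Neo replicate 2 the highest for Trim21, at 0.937.

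The change between HDAC4 and Neo in the pair numbered 1 differed from that in replicates 2 to 4 in the limma interaction test, by 3.085 for Isg15, 2.24 for Ifit1 and 2.089 for Usp18 on the log2 scale. Each is pair 1 minus the others, and the pair has 1 array per group.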

How the results depend on the processing

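The number of member probes past the threshold was 0 over all arrays (9 at an unadjusted p under 0.05) and depended on the arrays numbered 1. It was 10 without them, 1 with replicate 1 as a batch and 9 for replicates 2 to 4 in the interaction fit. It ran from 0 to 6 when 1 array was left out, and from 5 to 10 when 1 more was left out after those numbered 1. The direction held better: 27 to 37 member probes or genes were lower under the alternatives, and the median log2 change when 1 array was left out lay between -0.663 and -0.333. Those counts are not all out of 35, since the filter, the arrays left out and the gene level changed how many were tested. Over all probes the count was 21. It was 348 without the arrays numbered 1, 108 with the batch, 323 in the interaction fit and 1 without values at the reference floor, and ran from 0 to 88 with 1 array left out and from 37 to 145 with 1 more. The zeros, without Neo replicate 2, 3 or 4, had 915, 957 and 936 probes at an unadjusted p under 0.05. With the replicate block 9 of all probes and 0 of the member and pathway probes passed. The block thus removed the 1 call made on these lists over all arrays, that of Trim30a. Pathway probes past the threshold numbered 1 over all arrays, 8 without the arrays numbered 1, 2 with the batch, 2 after quantile normalization and 10 in the interaction fit, and 0 with values required on all 8 arrays, without values at the floor or at the gene level. They ran from 0 to 5 with 1 array left out and from 1 to 9 with 1 more. Of 535 alternatives for 21 probes given per array, 465 kept direction and side of the threshold, 62 passed it newly and 8 reversed. The 62 include the exact permutation test of Trim21, counted at its unadjusted p of 0.0286. No member probe passed over all arrays, so none could lose a call. The 8 reversals were all of Isg20: its first probe ran from -0.416 to 0.031 and its second from -0.302 to 0.094 as arrays were left out, and the gene mean was 0.141. The cause was not tested.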
